A study of Mus musculus with 8 samples.

Results

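Integrin and laminin genes were followed over 8 Affymetrix arrays of mouse embryo RNA that covered 4 origins and both genotypes of a focal adhesion kinase (FAK) series. A gene belonged to the set if its symbol was an integrin alpha or beta gene (Itga or Itgb with a number, 2b, v, e, d, l, m or x) or a laminin chain gene (Lama, Lamb or Lamc with a number). Of 18193 genes with a probe set, 34 belonged: 24 integrins and 10 laminins. Itgad and Itga11 were not matched to a probe set and were not analysed here.

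The labels gave 4 origins, named p75, LM, OFT and UM, each with 1 control and 1 FAK mutant array. The p75 arrays held cranial neural crest cells sorted by the p75 receptor from head and thorax at E11.5, with 3 embryos pooled per array. What LM, OFT and UM stand for is left unsaid in the labels, and only the title gives their age. Not given in the sources used here are the FAK allele, any Cre driver, the strain and the number of embryos behind the LM, OFT and UM arrays. Every origin has 2 arrays, which differ in genotype, and p-values measure only the spread between these arrays. In bulk RNA, fewer cells of a type and less RNA per cell cannot be told apart.

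Integrins are receptors made of 1 alpha and 1 beta chain that span the cell membrane, bind matrix proteins outside the cell and connect to actin inside it. FAK is a kinase recruited to the sites where bound integrins cluster. Laminins are trimers of an alpha, a beta and a gamma chain that polymerise into basement membranes, the sheets on which epithelia, nerves, muscle and vessels rest. Neural crest cells leave the neural tube and migrate through fibronectin- and laminin-rich matrix, and their descendants include glia, neurons, face skeleton and outflow tract tissue.

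Values are intensities on the array's linear scale, and differences were taken on log2(intensity + 32). On this scale a probe set with no signal reads 5, so differences of dim genes are understated. Testing needed 2 or more arrays above an intensity of 19.4, a condition met by 30 of the 34 members (20 integrins and 10 laminins). Ngfr, which encodes the p75 receptor, was at 1040 on the p75 control and 1420 on the p75 mutant array, against 47.0 to 149 on the other 6. Sox10, a neural crest and glial factor, was at 1510 and 1620 against 25.3 to 57.5. The FAK gene, Ptk2, had no named probe set, so the genotype labels were not checked by it. The Gapdh control probe sets at the 3' and 5' ends of the transcript gave a ratio, a sign of RNA quality, of 2.82 and 4.91 on the p75 control and mutant arrays, against 0.70 to 0.986 on the other 6. The same ratio for Actb was 1.57 and 1.65 in p75 and 1.42 to 1.94 elsewhere. The Gapdh ratio thus moved with the p75 differences below and the Actb ratio did not, and their part in them was not tested.

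Most members differed between origins, and none passed the test between genotypes. By limma's F test over all genes tested, 17 of 30 members differed between origins at an adjusted p under 0.05, where 46.4% of all 13543 genes did. The share was 8 of 10 laminins and 9 of 20 integrins. By origin mean, 6 of 10 laminins were highest in p75 and the other 4 (Lama3, Lama5, Lamb3 and Lamc1) in OFT.

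**Figure D1:**
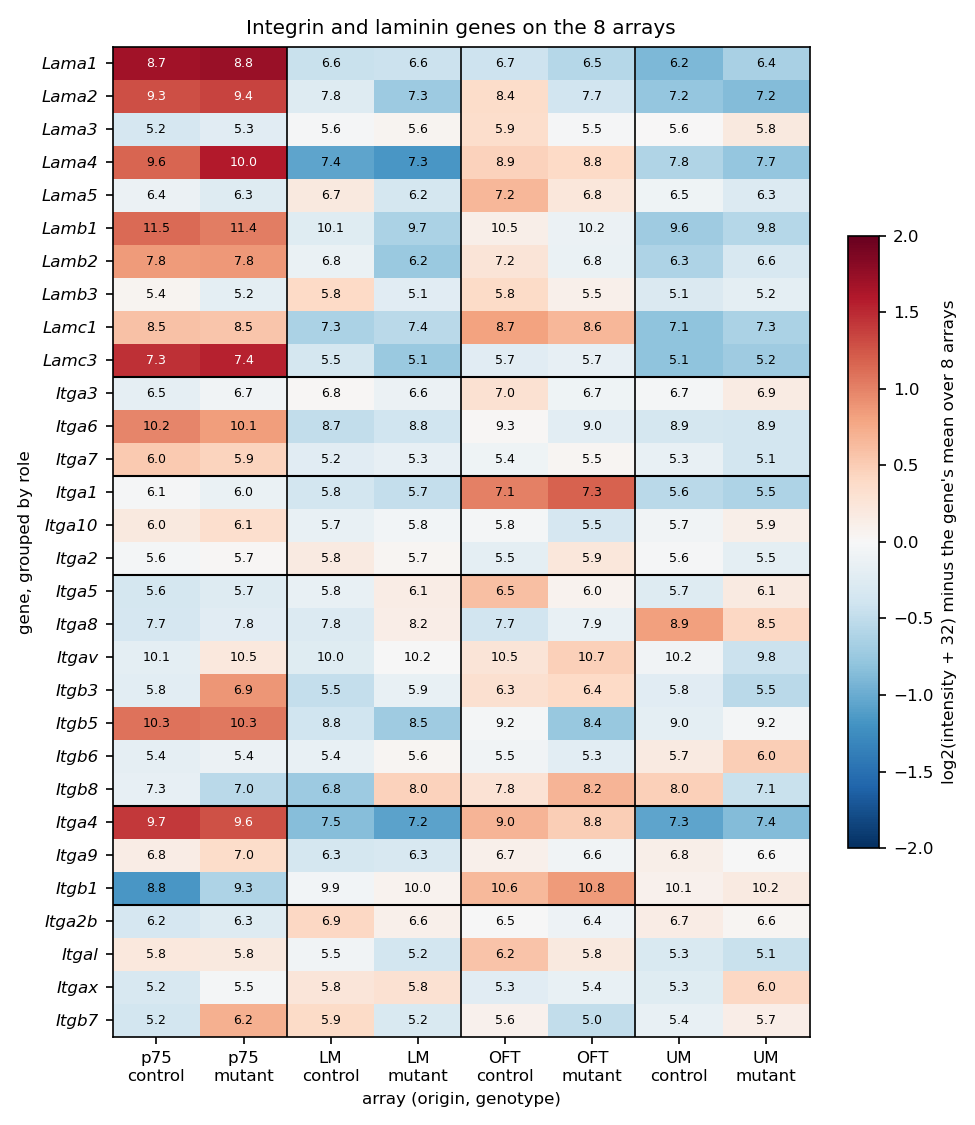
Log2(intensity + 32) of the 30 tested members (rows, grouped by role) on the 8 arrays (columns). Numbers are the values and colours the deviation from the gene's mean. Lama1, Lama2, Lama4, Lamb1, Lamb2, Lamc3, Itga4, Itga6, Itga7, Itga9, Itga10 and Itgb5 had their highest values on both p75 arrays. Itgb1, Itga2b and Lama3 had their lowest values there.

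In p75-sorted cells, 7 of 10 laminin genes were higher than in the mean of LM, OFT and UM, along with Itga4, Itga6, Itga7 and Itgb5, whereas Itgb1 and Itga2b were lower. Over all genes tested, 28.3% were higher and 19.0% lower in this contrast, so calls were common in it. Itga7 and Lamc3 met the filter only because of the p75 arrays, the origin in which they were high. Their calls here and in the F test thus rest partly on how they entered the test. For the laminins the median log2 difference was 1.29, for the integrins 0, and for all genes 0.07. Values after ± are limma's moderated SE, with 2 arrays per origin, and adjusted p-values are limma's with Benjamini-Hochberg adjustment over all genes tested.

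Lama1 encodes the alpha 1 chain, an early embryonic laminin chain. Its intensity was 396 on the p75 control and 411 on the p75 mutant array, 66.3 and 67.6 in LM, 68.6 and 58.1 in OFT, and 40.2 and 53.2 in UM. The p75 arrays lay apart from all others, and the log2 difference was 2.27 ± 0.15 (limma adjusted p = 7e-07). Lamc3, a gamma chain gene, was at 130 and 140 in p75 and between 1.85 and 20.4 on the other 6 arrays. The difference was 2.0 ± 0.15 (limma adjusted p = 1.9e-06), and the gene was near the array's lowest values outside the sorted cells. Its second probe set gave 1.11. Lama4, an alpha chain of vessels and nerve sheaths, was at 746 and 1007 in p75, 134 and 122 in LM, 446 and 425 in OFT, and 197 and 170 in UM. The order p75, OFT, UM, LM held with no overlap between neighbours, and the p75 difference was 1.83 ± 0.16 (limma adjusted p = 4.6e-06). Lama4's second probe set, which was dimmer, gave 0.55, and the mean of both gave 1.19.

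Lama2, the alpha chain of muscle and Schwann cell basement membranes, was at 603 and 633 in p75 against 111 to 305 elsewhere. The sorted cells stood apart, with a difference of 1.76 ± 0.17 (limma adjusted p = 1.2e-05). Lamb2, a beta chain of synaptic and kidney basement membranes, was at 186 and 188 in p75 against 40.1 to 112 elsewhere. Its difference was 1.14 ± 0.18 (limma adjusted p = 0.00032). Lamc1, the gamma chain of most laminin trimers, was at 330 and 320 in p75, 389 and 349 in OFT, 122 and 134 in LM, and 106 and 123 in UM. OFT rather than p75 was its highest origin, and the p75 difference was 0.76 ± 0.14 (limma adjusted p = 0.0011).

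Lamb1, the common embryonic beta chain, was at 2853 and 2620 in p75, 1070 and 809 in LM, 1380 and 1170 in OFT, and 764 and 848 in UM by its brightest probe set. That probe set gave a difference of 1.44 ± 0.15 (limma adjusted p = 1.9e-05). The other 3 Lamb1 probe sets gave 0.25, 0.09 and -1.51, so the gene's probe sets disagreed in direction. With the mean of its probe sets Lamb1 was at 0.07 (limma adjusted p = 0.70), and without probe sets of the x and s types, which can match several transcripts, at 0.25 (limma adjusted p = 0.23). Lama3, Lama5 and Lamb3, chains of epithelial laminins, did not pass, with differences of -0.37, -0.25 and -0.10. Epithelial markers summed to 542 to 609 in p75 and 1686 to 2985 on the other 6 arrays, and their part in these values was not tested.

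Among integrins that bind laminin, 2 of 3 tested genes rose in p75. Itga6, the alpha 6 chain, was at 1153 and 1041 in p75 and between 394 and 582 elsewhere. The difference was 1.21 ± 0.14 (limma adjusted p = 4.6e-05), and its second probe set gave 1.37. Itga7, the muscle-type alpha 7 chain, was dim everywhere, at 31.6 and 28.8 in p75 against 2.57 to 13.4, and differed by 0.65 ± 0.14 (limma adjusted p = 0.003). Itga3 did not pass, at -0.17. Skeletal muscle markers, where Itga7 is best known, summed to 699 and 1523 in p75, 471 and 605 in LM, 286 and 388 in OFT, and 56.5 and 79.0 in UM. Their part in the Itga7 value was not tested.

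Itga4, the alpha 4 chain that binds fibronectin and Vcam1, was at 809 and 734 in p75, 474 and 414 in OFT, 143 and 118 in LM, and 121 and 142 in UM. The p75, OFT and LM or UM arrays formed 3 separate levels, and the p75 difference was 1.79 ± 0.15 (limma adjusted p = 3.4e-06). Its other probe sets above the filter gave 1.18, 0.69 and -0.46, and the mean of all 5 Itga4 probe sets gave 0.63 (limma adjusted p = 0.0013). Itgb5, which pairs with alpha v to bind vitronectin, was at 1222 and 1197 in p75 and 317 to 545 elsewhere. The difference was 1.43 ± 0.18 (limma adjusted p = 5.8e-05), with 0.75 to 1.26 from the other 3 probe sets. It was the single member that passed among 7 tested genes of the RGD-binding and alpha v family.

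Itgb1 went the other way. The beta 1 chain, partner of most of the alpha chains here, was at 414 and 621 in p75, 930 and 1017 in LM, 1532 and 1780 in OFT, and 1036 and 1103 in UM. Both p75 arrays lay below the other 6, and the difference was -1.19 ± 0.15 (limma adjusted p = 6.9e-05). The other probe sets above the filter gave -1.37 and -1.04, and the mean of all Itgb1 probe sets, dim ones included, -0.67. The alpha chain genes Itga4 and Itga6 were thus highest in the origin in which Itgb1 was lowest.

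Itga2b, the platelet alpha chain, was at 40.4 and 44.5 in p75 against 52.8 to 89.9 elsewhere, a difference of -0.40 ± 0.15 (limma adjusted p = 0.041). Without the p75 control array the difference was -0.27, and without the p75 mutant array -0.52, with 1 p75 array left in each fit. The call was lost with quantile normalization (-0.32, limma adjusted p = 0.089) and with arrays centred on their median (-0.32, limma adjusted p = 0.085). It was also lost with a pseudocount of 64 (-0.29, limma adjusted p = 0.058). Of 19 alternatives, 9 kept the Itga2b call and 10 lost it, the rest of these being fits without 1 array. Platelet markers summed to 131 to 208 in p75 and 284 to 691 elsewhere, and their part in the Itga2b value was not tested. Endothelial markers summed to 372 and 376 in p75, where 6 to 8 of 9 exceeded 19.4, and to 956 to 2103 elsewhere. In p75, Pecam1 was the lowest of these markers, at 2.24 and 1.46, and Kdr the highest, at 105 and 119.

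Crest and glial markers summed to 9529 and 10960 in p75 against 498 to 1560 elsewhere, and neuronal markers to 5152 and 2975 against 277 to 2559. Their part in the p75 differences was not tested.

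**Figure D2:**
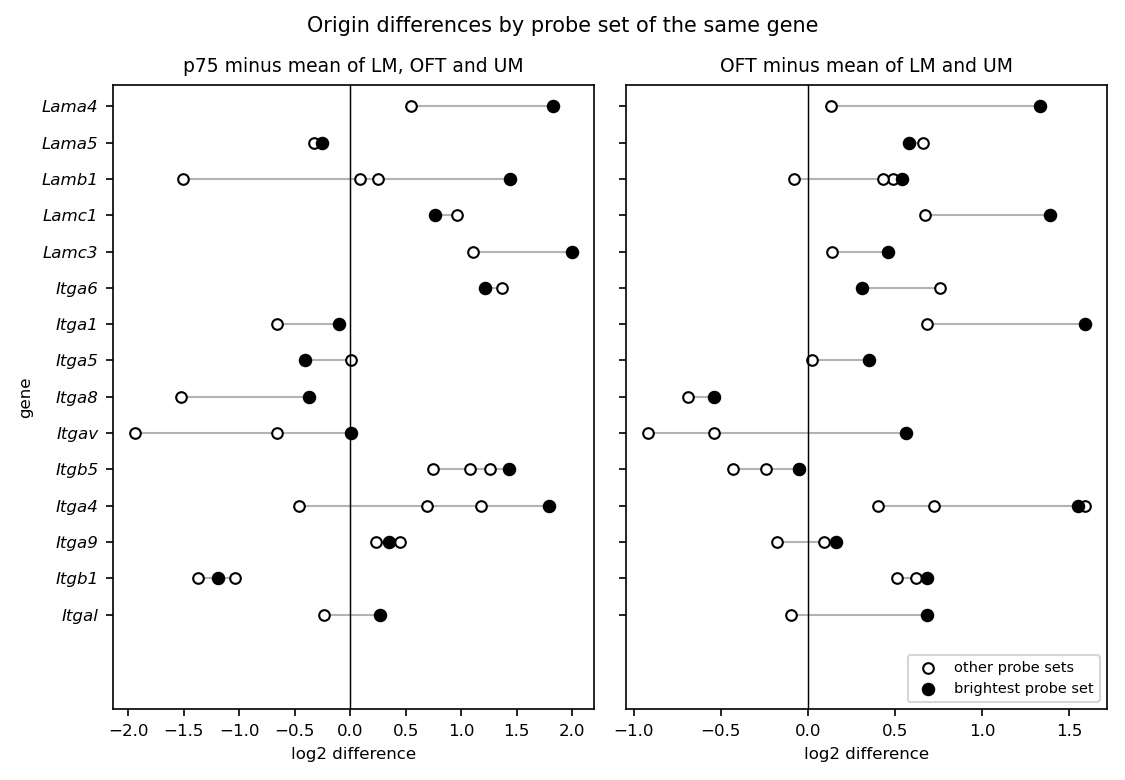
Log2 differences of the 15 tested members with at least 2 probe sets above the filter (39 probe sets), for p75 (left) and OFT (right). Filled points are the brightest probe set and open points the others. Probe sets of 1 gene differed by more than 1 in 5 genes for p75 and in 3 for OFT, and Lamb1 reached from 1.44 to -1.51 in p75.

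Genes of the other adhesion lists passed in both directions in p75, where 28.3% of all genes were higher and 19.0% lower. Of 18 tested basement membrane partners of laminins, 9 were higher and 2 lower, with a median difference of 0.27. Agrn (agrin, which binds laminin) was at 2.01 ± 0.19, and the collagen IV genes Col4a2 and Col4a1, the second network of basement membranes, at 1.98 ± 0.17 and 1.82 ± 0.16. Of 22 other integrin ligands, 10 were higher and 5 lower. Vtn (vitronectin) differed by 4.52 ± 0.17, Ccn1 by 3.36 ± 0.17 and L1cam, a neuronal adhesion molecule, by 2.93 ± 0.16. Cdh1, the epithelial cadherin, was at -2.47 ± 0.22. Of 17 activators and adaptors, 11 were higher and 3 lower. Cd9, a tetraspanin partner of integrins, was at -1.80 ± 0.15, Pxn (paxillin, a FAK partner at adhesions) at 1.65 ± 0.14, and Ilk, a scaffold on beta chains, at 1.21 ± 0.18.

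OFT differed from LM and UM by higher levels of 9 members and lower levels of none. The 9 were Itga1, Itga4, Itgal and Itgb1 among integrins and Lama2, Lama4, Lama5, Lamb1 and Lamc1 among laminins. With no filter, with the mean of all probe sets or with quantile normalization, 1 member was called lower. Some fits without 1 array, of LM or UM, also called a member lower. Over all genes tested, 11.3% were higher and 3.88% lower. The median log2 difference was 0.52 for laminins, 0.18 for integrins and 0.01 for all genes.

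Itga1, a collagen-binding alpha chain, was at 109 and 127 in OFT, 37.1 and 32.1 in p75, 22.1 and 18.5 in LM, and 16.1 and 13.7 in UM. The OFT arrays stood well apart, with a difference of 1.59 ± 0.15 (limma adjusted p = 1.7e-05), while the second probe set gave 0.68. Itga4 in OFT (values above) differed from LM and UM by 1.55 ± 0.16 (limma adjusted p = 2.8e-05). Lamc1 differed by 1.39 ± 0.15 (limma adjusted p = 5.1e-05) and Lama4 by 1.33 ± 0.17 (limma adjusted p = 0.00017). Their OFT arrays did not overlap with LM or UM. With the mean of all probe sets Itga4 was at 0.87 (limma adjusted p = 0.00087) and Lama4 at 0.73 (limma adjusted p = 0.014), and Lama4's second probe set alone gave 0.13. These 4 genes kept their call under the alternatives run for this contrast, with sizes that depended on the probe set.

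The other 5 were less steady. Itgb1 in OFT was above every other origin, with a difference of 0.68 ± 0.16 (limma adjusted p = 0.013), but 0.66 without the OFT control array (limma adjusted p = 0.20) and 0.70 without the OFT mutant array (limma adjusted p = 0.11). Itgal, a leukocyte alpha chain, was at 39.1 and 23.0 in OFT, 23.5 and 22.6 in p75, 13.6 and 4.96 in LM, and 6.89 and 2.97 in UM. It was dim in all origins, at 0.68 ± 0.15 (limma adjusted p = 0.0098), and lost the call when the OFT control array was dropped (0.58, limma adjusted p = 0.24) or the mutant one (0.79, limma adjusted p = 0.061). Its second probe set gave -0.10, and the mean of both gave 0.29 (limma adjusted p = 0.15). For Itgb1 in OFT, the other probe sets above the filter gave 0.62 and 0.51. The mean of all Itgb1 probe sets, dim ones included, gave 0.29 (limma adjusted p = 0.12). Macrophage and leukocyte markers summed to 1198 and 791 in OFT and 457 to 656 elsewhere, and their part in the Itgal value was not tested.

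Lama2 was at 305 on the OFT control array but 169 on the mutant array, which lay below the LM control array at 187. The difference of 0.65 ± 0.18 (limma adjusted p = 0.032) became 0.36 without the OFT control array (limma adjusted p = 0.58). Lama5, an epithelial and vascular alpha chain, was at 116 and 77.2 in OFT, 74.8 and 40.5 in LM, and 55.6 and 44.8 in UM, a difference of 0.58 ± 0.16 (limma adjusted p = 0.027). Lamb1 differed by 0.54 ± 0.16 (limma adjusted p = 0.042). By the mean of its probe sets Lamb1 was at 0.34 (limma adjusted p = 0.13). Without the x and s types it was at 0.49 (limma adjusted p = 0.08), and without both p75 arrays at 0.54 (limma adjusted p = 0.063). Without the OFT control array Lama5 was at 0.51 (limma adjusted p = 0.35) and Lamb1 at 0.48 (limma adjusted p = 0.40). Without the OFT mutant they were at 0.65 (limma adjusted p = 0.13) and 0.59 (limma adjusted p = 0.18). Dropping the OFT control array left 4 members called, and dropping the mutant one left 5.

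Just outside the threshold were Itgav, the alpha v chain, at 0.56 ± 0.18 (limma adjusted p = 0.056), Itgb3, its beta partner, at 0.71 ± 0.23 (limma adjusted p = 0.057), and Itga8, an alpha chain of mesenchyme, at -0.54 ± 0.18 (limma adjusted p = 0.067). Itgav was bright on all arrays, from 870 to 1678. Its other probe sets above the filter gave -0.92 and -0.54 in OFT, opposite in sign to the brightest. Cardiac muscle markers summed to 10690 and 11780 in OFT against 44.5 to 340 elsewhere, and smooth muscle markers to 5958 and 6405 against 131 to 2713. Endothelial markers were at 2103 and 1667 against 372 to 1121. Their part in the OFT differences was not tested.

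**Figure D3:**
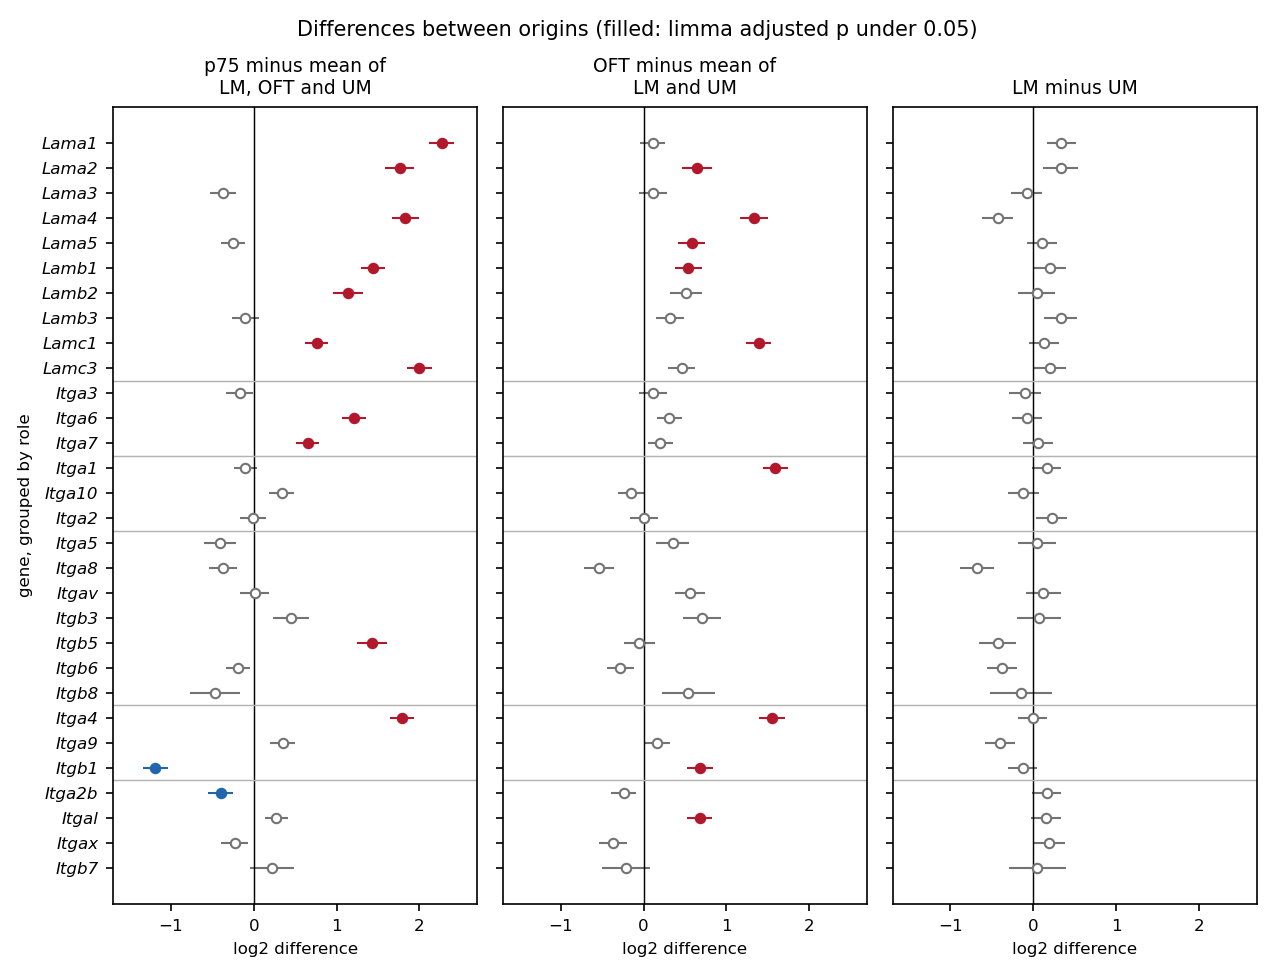
Log2 differences (points) with limma's SE (bars) for the 30 tested members in the 3 origin contrasts. Filled points passed at an adjusted p under 0.05, red for higher and blue for lower: 11 higher and 2 lower in p75, 9 higher in OFT, none between LM and UM.

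Of the genes on these lists that passed in OFT, all but 1 were higher, where 11.3% of all genes were higher and 3.88% lower. Of 18 basement membrane partners, 11 were higher and 1 lower, among them Sparc, a collagen-binding protein, at 1.84 ± 0.16, Col4a5 at 1.38 ± 0.15 and Agrn at 1.12 ± 0.20. Of 22 other ligands, 13 were higher and none lower, led by the matricellular genes Ccn2 at 2.28 ± 0.22 and Tnc at 2.13 ± 0.17, with Col1a1 at 1.66 ± 0.22 and Postn at 1.45 ± 0.15. Of 17 activators and adaptors, 7 were higher, none lower and 10 did not pass, with Vcl (vinculin) at 1.10 ± 0.15 and Tln1 (talin, the main activator of integrins) at 0.98 ± 0.17.

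No member passed between LM and UM, a contrast in which 0.738% of all genes were higher and 0.820% lower. The differences reached from -0.68 to 0.34. Itga8 had the lowest, at -0.68 ± 0.21 (limma adjusted p = 0.21). Its intensity was 437 and 320 in UM, 186 and 261 in LM, 171 and 207 in OFT, and 179 and 196 in p75. Both UM arrays were above the other 6, and Itga8 differed between origins by the F test (limma adjusted p = 0.011). Its second probe set gave -0.74 between LM and UM, but -1.52 in p75, where the brightest gave -0.37. Of the basement membrane, ligand and adaptor lists, no gene passed in this contrast.

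The members past the threshold in both the OFT and the p75 contrast were Itga4, Itgb1, Lama2, Lama4, Lamb1 and Lamc1. The contrasts share the LM, OFT and UM arrays, so this list serves only to choose the promoters shown here. Lamb1 lost its call in both contrasts with the mean of its probe sets. RefSeq promoter sequences (GRCm38.p6) were held for 22 of the 34 members and 4 of these 6. They cover the 250 bases before the start, 5′ to 3′ on the gene's strand, at chr2:79255176-79255425 (plus) for Itga4, chr8:128685404-128685653 (plus) for Itgb1, chr10:27616943-27617192 (minus) for Lama2 and chr12:31265043-31265292 (plus) for Lamb1. Capitals mark matches to the GC box (GGGCGG) or the CCAAT box (CCAAT) on either strand.
Itga4: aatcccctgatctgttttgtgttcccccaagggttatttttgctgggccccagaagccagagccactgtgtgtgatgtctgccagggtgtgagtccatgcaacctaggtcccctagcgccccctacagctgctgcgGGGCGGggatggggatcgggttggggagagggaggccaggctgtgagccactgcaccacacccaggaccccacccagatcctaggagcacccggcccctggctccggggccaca
Itgb1: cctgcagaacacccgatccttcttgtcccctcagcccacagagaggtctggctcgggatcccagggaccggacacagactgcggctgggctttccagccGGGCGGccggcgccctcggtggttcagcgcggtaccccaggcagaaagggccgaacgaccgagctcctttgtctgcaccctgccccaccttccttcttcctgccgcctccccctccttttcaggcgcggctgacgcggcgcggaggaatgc
Lama2: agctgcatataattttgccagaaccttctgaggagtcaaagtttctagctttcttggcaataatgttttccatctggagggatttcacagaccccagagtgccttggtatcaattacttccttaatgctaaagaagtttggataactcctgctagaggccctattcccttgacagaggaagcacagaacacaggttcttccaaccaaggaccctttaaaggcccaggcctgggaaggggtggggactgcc
Lamb1: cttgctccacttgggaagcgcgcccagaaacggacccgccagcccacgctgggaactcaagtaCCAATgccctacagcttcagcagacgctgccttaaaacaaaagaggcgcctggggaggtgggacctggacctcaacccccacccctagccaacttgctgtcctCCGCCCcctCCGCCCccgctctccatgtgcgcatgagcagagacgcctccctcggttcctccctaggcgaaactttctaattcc

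A GC box was found at -114 in Itga4, at -151 in Itgb1 and at -84 and -75 in Lamb1, counted from the start, and a CCAAT box at -187 in Lamb1. Over 32851 promoters of the same length, 32.7% held a GC box and 33.8% a CCAAT box. Neither TATAAA (12.4% of promoters) nor the SOX core ACAAT (27.7%) was found in the 4 windows, searched on both strands. The windows differed in base composition: GC content was 68.0% in Itgb1, 64% in Itga4, 62.0% in Lamb1 and 47.2% in Lama2, against a median of 52.4%. Itgb1 held 21 CpG sites, Lamb1 14, Itga4 6 and Lama2 0, against a median of 6.

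Between FAK mutants and controls, no member passed, and no gene of all 13543 did (0%). At an unadjusted p under 0.05 by limma there were 410 genes, 1 of them a member, Lama5. The lowest adjusted p over all genes was 0.75. The members' median mean difference over the 4 pairs was -0.01, as for all genes. No gene of the basement membrane, ligand or adaptor lists passed either.

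Of the 30 tested members, 2 were higher in the mutant in all 4 pairs and 2 lower, where 3.94% and 5.24% of all genes were. Lama5 differed by -0.14 in p75, -0.56 in LM, -0.44 in OFT and -0.19 in UM, a mean mutant-minus-control difference of -0.33 ± 0.13 (n = 4 pairs, limma adjusted p = 1). Itgal differed by -0.02 in p75, -0.30 in LM, -0.37 in OFT and -0.15 in UM, with a mean of -0.21. Itgb1 was higher by 0.55 in p75, 0.13 in LM, 0.21 in OFT and 0.09 in UM, with a mean of 0.24 ± 0.13 (limma adjusted p = 1). Itgax, a leukocyte alpha chain, was higher by 0.28, 0.06, 0.08 and 0.65 in the same order, with a mean of 0.27, but was no brighter than 29.6 on any array. By the mean of all probe sets the genotype difference was 0.03 for Itgb1, -0.15 for Lama5, whose second probe set gave 0.05, and 0.05 for Itgal.

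Within single origins, with 1 array per genotype and no test, few members differed by 0.5 or more on the log2 scale. In p75, 3 were higher in the mutant and none lower, where 4.39% and 5.74% of all genes were. Itgb3 was at 23.7 in the control and 85.6 in the mutant (1.08), Itgb7, a leukocyte beta chain, at 3.46 and 42.4 (1.07), and Itgb1 at 414 and 621 (0.55). Skeletal muscle markers moved in the same pair, from 699 to 1523, and neuronal markers from 5152 to 2975. Their part was not tested.

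In LM, 1 member was higher and 4 lower, where 6.74% and 6.11% of all genes were. Itgb8, an alpha v partner that activates TGF-beta, was at 78.7 in the control and 218 in the mutant (1.18). Lower in the mutant were Itgb7 (27.8 to 4.95, -0.69), Lamb3 (22.6 to 3.31, -0.63), Lamb2 (78.1 to 40.1, -0.61) and Lama5 (74.8 to 40.5, -0.56). In OFT none was higher and 4 were lower, where 2.54% and 4.68% of all genes were. They were Lama2 (305 to 169, -0.74), Itgb5 (545 to 317, -0.73), Itgb7 (16.6 to 0.753, -0.57) and Itga5, the fibronectin receptor chain (61.7 to 32.4, -0.54). In UM, Itgax was higher (7.22 to 29.6, 0.65) and Itgb8 lower (223 to 102, -0.93), where 4.36% and 3.43% of all genes were. Marker sums moved in these pairs too. Neuronal markers went from 277 to 517 in LM, 2559 to 1379 in OFT and 1216 to 720 in UM. Erythroid markers went from 28830 to 17740 in LM and 17080 to 25400 in UM, and macrophage markers from 1198 to 791 in OFT. Their part was not tested.

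**Figure D4:**
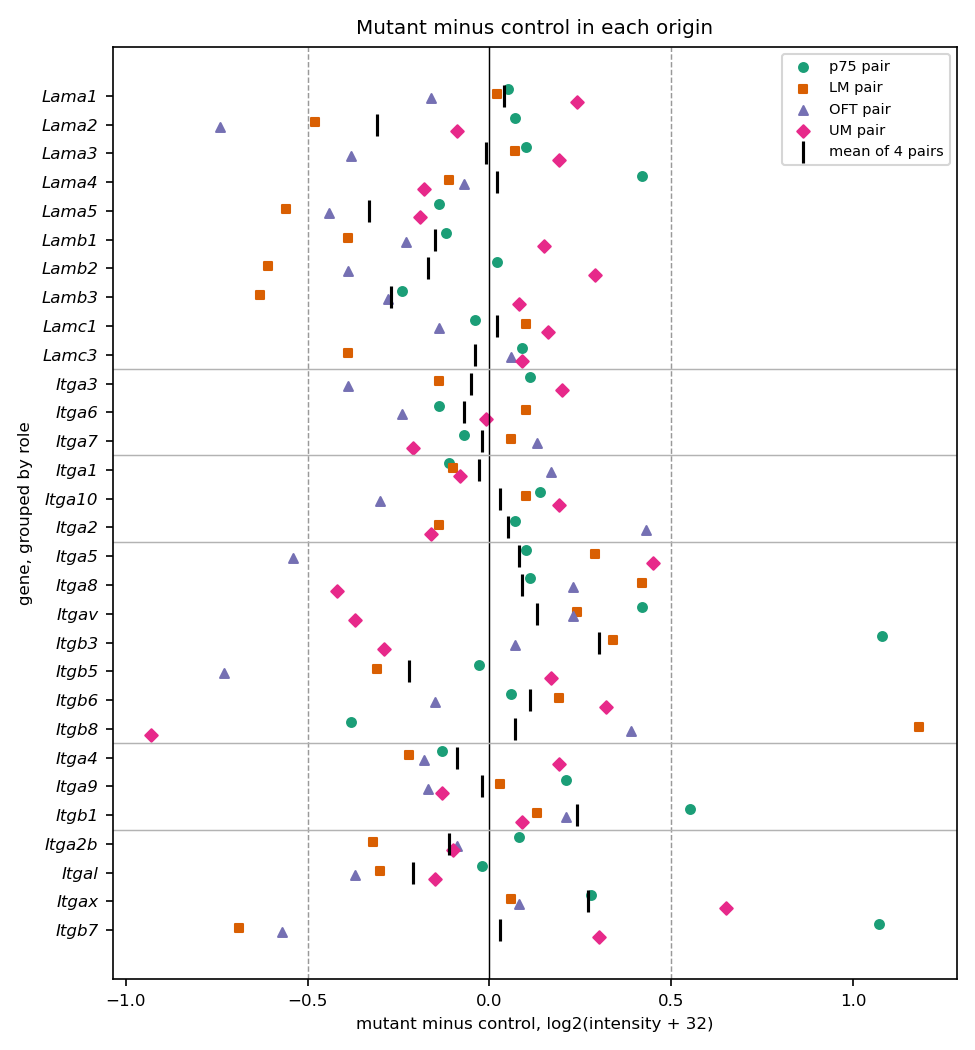
Mutant minus control on the log2(intensity + 32) scale for the 30 tested members in each of the 4 origins, with the mean of the pairs as a bar. Dashed lines mark 0.5 in either direction. Itgb8 lay at 1.18 in LM and -0.93 in UM, and Lama5 was below 0 in all 4 pairs.

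The remaining members passed in no origin contrast. Itga2, Itga3, Itga5, Itga9, Itga10, Itgb6, Itgb7, Itgb8, Itgav, Itgax, Lama3 and Lamb3 did not pass the F test either. Of these, Itga3, Itga9, Itgav and Itgb8 exceeded 19.4 on all 8 arrays, and a second Itgav probe set gave -1.94 in p75. Itgb3, at 85.6 on the p75 mutant array and 12.4 to 52.4 on the others, passed in the F test alone (limma adjusted p = 0.049). Itgae, Itgam, Itgb2 and Itgb4 did not reach the filter. Itgam, a macrophage alpha chain, was at 10.1 or below on every array and Itgb4, the epithelial hemidesmosome beta chain, at 13.1 or below. Itgb2, the beta chain of leukocytes, was at 0.753 to 21.2, and Itgae at 1.57 to 33.1.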

How the data were processed

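RNA of 8 samples was measured on 8 arrays, and the deposited values are linear intensities of 45101 probe sets. Their software: not given in the sources used here. The trimmed mean was 150 on every array and their median log2 value 5.95 to 6.08, so no further scaling was applied. The number of arrays limits the precision. The platform annotation gave 1 gene for 34945 probe sets, several genes for 932 (left out) and no entry for 9211. Affymetrix control probe sets were not used as genes. Updating symbols through Entrez identifiers changed 0.

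Each of 18193 genes was represented by its probe set with the highest mean intensity over the 8 arrays. Ranking by mean log2 value instead was added after seeing the data. It changed the probe set of 117 genes, 1 of them a member, Lamc3. Genes with at least 2 of 8 arrays above the 40th percentile (19.4) were tested, 13543 in all. The model in limma 3.58.1 (R 4.3.3; lmFit, eBayes) held origin and genotype terms, with 3 residual and 9.05 prior degrees of freedom. The origin label pairs control and mutant arrays. P-values were Benjamini-Hochberg adjusted over all genes tested, with a threshold of 0.05. The script was tested on simulated data.

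The members and gene lists were chosen with earlier results of these data known. The rule for named genes asked for full values of members that passed in an origin contrast (up to 8 per direction), for the 3 highest and 3 lowest mean genotype differences of 1 sign in all 4 pairs, and for members differing by 0.5 or more within an origin (up to 3 per direction), with up to 4 passing genes per other list. The text goes past these limits and gives every member that passed or differed by 0.5 or more, a choice made after the values were seen. Alternatives were the pseudocount, the filter, the probe set rule, scaling, eBayes options, leaving out each array, leaving out both p75 arrays and dropping the origin term.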

Additional observations from a re-analysis of the deposited data

Results flagged for a closer look

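In 2 of 30 tested members, 1 pair's mutant-minus-control difference stood far from the other 3, beyond Dixon's 95% critical value for 4 values. Chance gives this in about 1 of 20 groups. For Itga1 it was OFT, at 0.17 against -0.11 to -0.08 in the other pairs. For Lamc3 it was LM, at -0.39 against 0.06 to 0.09, by a probe set at 13.7 and 2.93 there.

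In 2 members the mutant array was 0.5 or more above its control in 1 origin and 0.5 or more below it in another. Itgb7 was at 1.07 in p75 and -0.69 in LM. Itgb8 was at 1.18 in LM and -0.93 in UM. With 1 array per genotype in each origin, these differences between origins were not tested.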

How the results depend on the processing

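No member passed between genotypes or between LM and UM under any alternative run, and dropping the origin term that pairs the arrays (no replicate block) also gave 0 members between genotypes. In p75, 11 to 17 members passed against 13. The 17, with the mean of all probe sets, were 12 higher and 5 lower, against 11 and 2. Of 423 recomputed origin differences of 22 member results, 382 kept their call, 41 lost it and 0 reversed. In OFT, 5 members passed with a pseudocount of 1 against 9, and 4 to 12 when leaving out each array in turn. Members 0.5 or more apart between mutant and control numbered 5 in p75, 11 in LM, 13 in OFT and 10 in UM with a pseudocount of 1, against 3, 5, 4 and 2. With a pseudocount of 64 they numbered 1 in LM, 2 in OFT and 1 in UM, and the p75 count did not change. The genotype difference of Itgal turned to 0.05 with the mean of all probe sets. Ranking probe sets by mean log2 value, chosen after seeing the data, left the counts of members at 9 in OFT and 13 in p75 and gave Lamc3 1.11 in place of 2.0. A pseudocount of 1 gave p75 differences of 4.02 for Lamc3 and 1.94 for Itga7, and 2.69 for Itga1 in OFT. Apart from that construction, the cause of these changes was not tested. Members near an intensity of 19.4 are limited by signal over background.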
